A study of Mus musculus with 6 samples.

Results

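The phase II conjugation enzymes make foreign chemicals, steroids, bile acids and bilirubin more soluble by attaching a polar group to them. Glutathione S-transferases (Gst genes, and the membrane-bound Mgst genes) attach glutathione, UDP-glucuronosyltransferases (Ugt1 and Ugt2) attach glucuronic acid, and sulfotransferases (Sult) attach sulfate. In the intestine these enzymes act mainly in absorptive epithelial cells, where they meet compounds taken up from food and bile. Members were all genes whose symbol begins with Gst and a class letter a, k, m, o, p, t or z, or with Mgst, Ugt1, Ugt2 or Sult1 to Sult6. RefSeq lists 65 such protein-coding genes in the mouse, of which 57 had a named array probe and 42 had a probe that stood well above background on 3 or more of the 6 arrays. The brightest such probe represented each gene, so that 42 of the 13492 genes tested are described.

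The samples were crypts, the glands at the base of the villi where intestinal stem cells reside, isolated from mice on a mixed strain background. The knockout group (3 samples, labelled Villin-Cre; Arid1a f/f) carried a Cre recombinase driven by the Villin promoter, which is active throughout the intestinal epithelium, together with floxed Arid1a alleles. The control group (3 samples, labelled Arid1a f/f) carried the floxed alleles without Cre, and ages are not given in the labels. The Arid1a protein binds DNA as part of BAF, a complex that moves nucleosomes. The comparison asks how gene expression in crypts differs when Arid1a is deleted there. The labels of 2 samples contradict themselves: knockout 2 is a knockout by title and description but a control by source name and genotype, and the reverse is true of control 3. Groups follow title and description. It is not stated that each sample came from its own animal, so p-values measure only the spread between these samples.

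On each array a gene's level is given as the log2 of its signal over the array's 75th percentile, so that 0 stands for a probe at that percentile. A difference is the mean log2 level of the knockouts minus that of the controls, given ± its SE (n = 3 each). It passed the test where limma's p, adjusted over all 13492 genes by Benjamini-Hochberg and two-sided, was under 0.05. The deleted gene itself was low on every array labelled knockout: Arid1a had 2.20, 2.07 and 2.51 in knockouts 1 to 3, against 3.71, 3.47 and 4.01 in controls 1 to 3. The groups of Arid1a did not overlap, and the difference was -1.47 ± 0.21 (limma adjusted p = 0.00733). All 8 epithelial markers examined, such as Epcam and Vil1, were measured, and 0 of these passed by limma (1 higher at an unadjusted p under 0.05). The differences of all 8 were positive, with a median of 0.44. Xist was well above background on knockout 2 and on controls 2 and 3, while 4 Y-linked genes were so on knockouts 1 and 3 and on control 1. The groups therefore also differ in the sex of the samples. Arrays 1 and 2 of each group shared a slide, and array 3 of each group lay on a second slide scanned on another day.

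Of the 42 members, 8 were lower and 3 were higher in knockout crypts by the test. The lower members were Gstm2, Ugt2a3, Ugt2b36, Ugt2b38, Sult1a1, Ugt2b37, Mgst1 and Gstk1, and the higher ones were Sult6b2, Gsto2 and Gstt2. Over all genes tested, 14.9% were called in either direction, 7.28% as higher and 7.63% as lower, against 7.14% and 19.0% of the members. Of these members, Gsto2 passed the background filter through the knockout arrays alone and Sult1a1 through the control arrays alone. Among the 40 members above background on at least 4 arrays, 2 were higher and 7 lower. Knockout and control arrays did not overlap for 19 members, 14 of them lower and 5 higher in knockout. The same held for 39.7% of all genes (20.7% lower and 19.0% higher). The median difference over the members was -0.16, and over all genes it was -0.01.

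The number of calls depended on single arrays. Leaving out 1 array at a time gave 1 to 11 lower and 1 to 8 higher members. Over all 13492 genes the same fits called 286 to 2323 lower and 352 to 1710 higher. Without both samples whose labels contradict themselves, 5 members were lower (Gstm2, Sult1c2, Ugt2a3, Ugt2b35 and Ugt2b37) and 0 were higher by limma, with 14 lower and 4 higher at an unadjusted p under 0.05. With the slide as a block, 6 were lower, without Sult1a1 and Ugt2b38, and 4 higher, with Gstm7 added. With the sex-linked genes as a block, 4 were lower (Gstm2, Mgst1, Ugt2a3 and Ugt2b37) and 3 higher. Over all genes, 143 were lower and 177 higher without both contradicting samples. The slide block gave 1269 and 1234 of all genes, and the sex block 643 and 696. Without knockout 1 the higher members numbered 8, with Gsta2, Gstm6, Gstm7, Gstt3 and Sult1d1 added, and Ugt2b5 took the place of Sult1a1 among the lower ones. That fit called 1710 of all genes higher and 2323 lower. Without control 1, and likewise without control 2, Ugt2a3 and Gsto2 were the members still called, and without control 3 Mgst1 passed besides these. Without knockout 2 the calls of Gstk1, Mgst1 and Gstt2 were lost, and without knockout 3 those of Sult1a1, Sult6b2 and the Ugt2b genes. Ugt2a3 passed in 23 of 24 alternative settings and Gsto2 in 21 of 23, the most among the called members. Some settings could hardly end these calls: the looser threshold, the deposited table of the same values, and the mean of probes for genes with 1 kept probe. Gsto2 was not tested where all 6 arrays had to be above background, and it passed the filter through the knockout arrays alone.

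**Figure D1:**
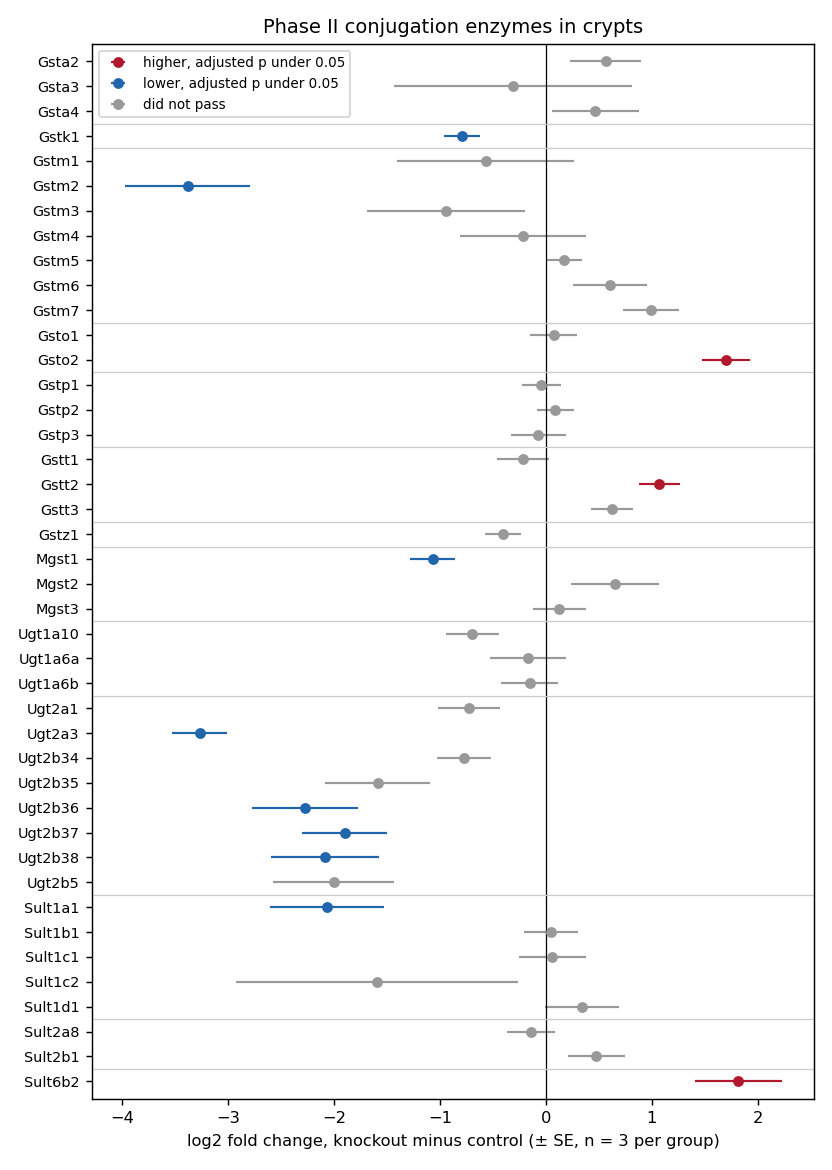
Difference in log2 signal, knockout minus control, for the 42 members, grouped by enzyme class from the glutathione transferases at the top to the sulfotransferases at the bottom. Points are the estimates of the fit and bars are ± 1 SE with n = 3 per group; red points passed the test as higher, blue as lower, grey did not pass. All 8 Ugt2 genes lie left of 0, while the glutathione transferases and sulfotransferases lie on both sides.

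The Ugt2 class, whose enzymes glucuronidate steroids, bile acids and drugs, was the class with the most members called. All 8 measured Ugt2 genes were negative, their median difference was -1.95 (a 3.87-fold lower signal), and on all 8 every knockout array lay below every control array. Of these, 4 passed the test as lower, and all 8 were lower at an unadjusted p under 0.05. All 8 were also negative under each of 4 other background corrections or normalizations, with medians between -1.16 and -2.20. Of these, the changes of array scale move every gene of an array alike, so they could hardly turn differences of this size. The mean of a gene's probes is no check here, since each Ugt2 gene had 1 kept probe. The 8 genes lie in 1 cluster on chromosome 5, so they are neighbours in the genome as well as relatives in sequence. The array's probe sequences were not used here, and whether a probe for 1 Ugt2b gene also binds the transcripts of its relatives was not tested. In whole crypts, fewer cells of a type and less RNA per cell cannot be told apart.

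The promoter windows of 5 Ugt2 genes are printed because these genes had the largest differences of the cluster. Each is the RefSeq sequence from 250 bases before to 50 bases after the gene's start, on the minus strand of GRCm38.p6, 5′ to 3′. Capitals mark matches to 3 of 5 short motifs searched on both strands: GTTAAT (part of the site of HNF1 factors), TGATAA (bound by factors of the GATA family, and printed as TTATCA where it lies on the other strand) and TTTATTG (bound by CDX factors). The windows lie at chr5:87337146-87337445 for Ugt2a3, chr5:87092506-87092805 for Ugt2b36, chr5:87254739-87255038 for Ugt2b37, chr5:87424154-87424453 for Ugt2b38 and chr5:87140291-87140590 for Ugt2b5.
Ugt2a3: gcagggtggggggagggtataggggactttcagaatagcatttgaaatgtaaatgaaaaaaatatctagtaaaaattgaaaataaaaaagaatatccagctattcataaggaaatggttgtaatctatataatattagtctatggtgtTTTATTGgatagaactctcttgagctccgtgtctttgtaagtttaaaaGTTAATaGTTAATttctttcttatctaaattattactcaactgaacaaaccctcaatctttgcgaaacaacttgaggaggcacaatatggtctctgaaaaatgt
Ugt2b36: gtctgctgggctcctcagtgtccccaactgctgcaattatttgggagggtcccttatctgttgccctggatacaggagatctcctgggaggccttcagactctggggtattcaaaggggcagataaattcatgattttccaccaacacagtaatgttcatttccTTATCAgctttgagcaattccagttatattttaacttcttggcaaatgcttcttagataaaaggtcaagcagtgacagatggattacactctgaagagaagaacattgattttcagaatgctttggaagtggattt
Ugt2b37: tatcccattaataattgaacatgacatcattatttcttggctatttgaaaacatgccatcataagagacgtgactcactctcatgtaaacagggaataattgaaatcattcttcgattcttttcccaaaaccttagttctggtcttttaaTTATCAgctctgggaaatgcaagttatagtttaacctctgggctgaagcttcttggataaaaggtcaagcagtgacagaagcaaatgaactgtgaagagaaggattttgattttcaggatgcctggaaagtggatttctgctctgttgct
Ugt2b38: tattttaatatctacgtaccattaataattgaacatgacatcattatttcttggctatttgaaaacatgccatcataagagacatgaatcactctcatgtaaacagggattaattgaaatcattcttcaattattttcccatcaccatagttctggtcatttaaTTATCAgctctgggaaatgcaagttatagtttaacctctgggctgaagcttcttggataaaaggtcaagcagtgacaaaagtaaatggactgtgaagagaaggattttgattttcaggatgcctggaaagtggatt
Ugt2b5: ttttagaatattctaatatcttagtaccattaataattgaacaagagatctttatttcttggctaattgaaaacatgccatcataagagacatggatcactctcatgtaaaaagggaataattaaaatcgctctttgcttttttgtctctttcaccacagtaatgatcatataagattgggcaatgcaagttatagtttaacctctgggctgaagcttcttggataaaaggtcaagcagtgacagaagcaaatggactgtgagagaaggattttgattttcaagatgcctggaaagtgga

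The windows of Ugt2b37 and Ugt2b38 were identical at 87.3% of aligned columns, those of Ugt2b38 and Ugt2b5 at 84.2%, and those of Ugt2b37 and Ugt2b5 at 76.5%. Ugt2b36 was farther from these, at 61.4% to 63.5%, and Ugt2a3 was at 48.6% to 52.8% with every other Ugt2 window. The alignments allowed gaps and unrelated windows were not aligned, so the lower figures have no baseline. The Ugt2a3 window held GTTAAT at 2 places and TTTATTG at 1. The windows of Ugt2b36, Ugt2b37 and Ugt2b38 each held TGATAA once, and the Ugt2b5 window held none of the motifs searched. TGATAA was present in at least 1 window of 9 of the 39 members with a RefSeq window (23.1%), against 10.4% of all 27025 genes with one. For GTTAAT these figures were 6 members (15.4%) and 8.24% of genes, and for TTTATTG 1 member (2.6%) and 5.33% of genes. The 9 members with TGATAA include Ugt2b37 and Ugt2b38, whose windows are largely alike, and their relatives Ugt2b36 and Ugt2a1. These matches are thus not independent. Members had 51 windows for 39 genes, against 32851 for 27025 over all genes, and more windows give more room for a match. A match describes the letters of these windows and not a bound site.

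Ugt2a3, whose human counterpart glucuronidates bile acids, had the largest difference of the class. Its level was 0.35, 0.52 and 1.29 in knockouts 1 to 3, against 4.02, 4.02 and 3.93 in controls 1 to 3. The controls lay close together and all 3 knockout arrays were far below them. The difference was -3.27 ± 0.26, a 9.63-fold lower signal (limma adjusted p = 0.00113). It was -3.58 on the first slide and -2.64 on the second. Without both samples with contradicting labels Ugt2a3 remained lower, at -3.20 (limma adjusted p = 0.0319). When samples were grouped by source name and genotype instead, its difference was -0.99 (limma adjusted p = 0.999).

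The called Ugt2b genes differed in level among the knockout arrays. Ugt2b36 had -3.70, -1.51 and -2.53 in knockouts 1 to 3, against -0.30, -0.26 and -0.35 in controls 1 to 3. It was well above background on only 2 of the 3 knockout arrays, so its low values there are partly bounds. Ugt2b37 had -3.03, -1.34 and -2.24 in knockouts, against -0.33, -0.20 and -0.39 in controls. Ugt2b38 had -1.50, 0.64 and -0.12 in knockouts, against 1.69, 1.98 and 1.62 in controls. In each of these genes knockout 1 was the lowest array, knockout 2 the least low, and no knockout array reached the controls. The differences were -2.27 ± 0.50 for Ugt2b36 (limma adjusted p = 0.0307), -1.90 ± 0.40 for Ugt2b37 (limma adjusted p = 0.0270) and -2.09 ± 0.51 for Ugt2b38 (limma adjusted p = 0.0401). These calls were close to the threshold and rested on all 3 controls and on knockout 3, as given above, and that of Ugt2b38 was also lost with the slide as a block.

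The other 4 Ugt2 genes did not pass, although their groups did not overlap. Ugt2b5 had -2.48, 0.01 and -1.02 in knockouts, against 0.90, 0.79 and 0.84 in controls, with a difference of -2.01 ± 0.57 (limma adjusted p = 0.0612). Ugt2b35 had -3.78, -2.23 and -4.21 in knockouts, against -1.51, -2.02 and -1.91 in controls (difference -1.59 ± 0.50, limma adjusted p = 0.0763). It too was well above background on only 2 of the 3 knockout arrays, so its low values there are partly bounds. Ugt2b34 had 5.30, 6.04 and 6.0 in knockouts, against 6.66, 6.28 and 6.72 in controls, and Ugt2a1, best known from olfactory epithelium, had 0.29, 1.12 and 1.22 in knockouts, against 1.74, 1.27 and 1.81 in controls. Their differences were the smallest of the class, -0.77 ± 0.25 for Ugt2b34 (limma adjusted p = 0.083) and -0.73 ± 0.29 for Ugt2a1 (limma adjusted p = 0.136). Ugt2b1 was not above background on any array, and Ugt2a2 had no named probe.

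Along chromosome 5 the RefSeq order of the genes is Ugt2b34, Ugt2b1, Ugt2b35, Ugt2b36, Ugt2b5, Ugt2b37, Ugt2a3, Ugt2b38, Ugt2a1, Ugt2a2, Sult1b1, Sult1d1 and Sult1e1. The 5 largest differences belonged to 5 genes next to each other, from Ugt2b36 to Ugt2b38. The 2 genes measured beyond Ugt2a2 were sulfotransferases and did not pass. Sult1b1 had 6.68, 7.43 and 7.59 in knockouts, against 7.15, 7.16 and 7.24 in controls, so that the groups overlapped (difference 0.05 ± 0.25, 95% interval -0.56 to 0.66). A second, dimmer probe of Sult1b1 differed by -0.53, also with overlap. Sult1d1 had 4.22, 5.58 and 5.29 in knockouts, against 4.68, 4.64 and 4.75 in controls (difference 0.34 ± 0.35, 95% interval -0.49 to 1.17).

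**Figure D2:**
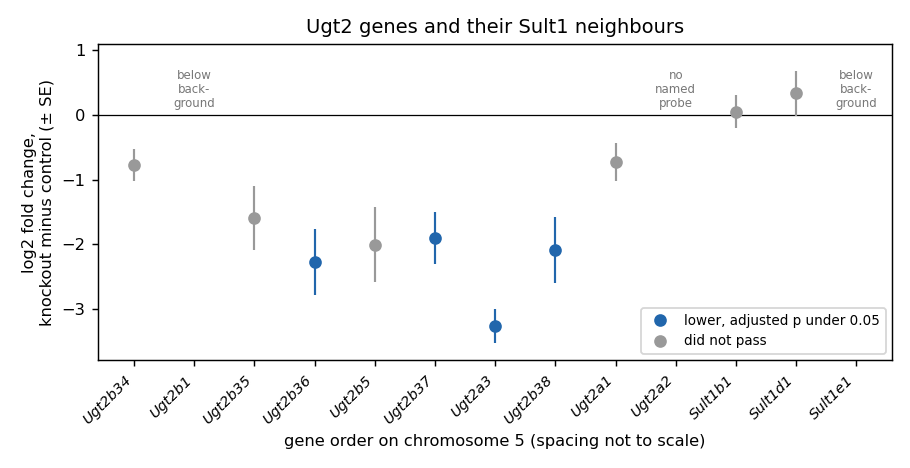
Difference in log2 signal, knockout minus control, for the Ugt2 genes and the adjacent Sult1 genes in their RefSeq order on chromosome 5, with genes evenly spaced. Points are estimates and bars ± 1 SE with n = 3 per group; blue points passed the test as lower, and genes without a point had no probe above background or no named probe. The low points run from Ugt2b36 to Ugt2b38, and Sult1b1 and Sult1d1 lie near 0.

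The Ugt1 class, which includes the enzymes for bilirubin and planar phenols, was measured by 3 of 9 genes, of which 0 passed by limma (1 lower at an unadjusted p under 0.05). Ugt1 genes differ in their first exon and share the rest, so probes in the shared part cannot tell them apart. Ugt1a10 had the smallest p of the class, with 1.11, 1.63 and 1.94 in knockouts, against 2.36, 2.0 and 2.41 in controls. Its groups did not overlap, and its difference was -0.70 ± 0.25 (limma adjusted p = 0.106). Ugt1a6b had 7.24, 8.17 and 8.04 in knockouts, against 8.07, 7.79 and 8.05 in controls, and its groups overlapped. The 3 Ugt1a6b probes differed by -0.15, -0.28 and 0.08, and the Ugt1a6a probe by -0.17.

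Among 20 measured glutathione transferases outside the Mgst names, 10 were negative and 10 positive, with a median of 0.01. Over all genes 50.9% were negative, with a median of -0.01, so this split is near that of all genes. By the test 2 of the 20 were lower and 2 higher (10% each), against 7.63% and 7.28% of all genes. Gstm2, a transferase of the mu class, had the largest difference of any member over all 6 arrays, and was passed by Ugt2a3 on the first slide alone, with normexp, with array weights, with the sex-linked genes as a block, without knockout 3 and without control 3. Its promoter window, shown because its difference and that of Ugt2a3 stood above those of the other members, lies at chr3:107986371-107986670 on the minus strand of GRCm38.p6 and holds 1 TGATAA, in capitals as TTATCA.
Gstm2: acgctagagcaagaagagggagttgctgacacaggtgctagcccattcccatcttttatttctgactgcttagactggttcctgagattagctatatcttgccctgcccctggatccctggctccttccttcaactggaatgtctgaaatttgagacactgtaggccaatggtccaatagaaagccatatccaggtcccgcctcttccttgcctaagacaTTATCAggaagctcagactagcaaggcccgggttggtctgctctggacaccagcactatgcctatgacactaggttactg

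Gstm2 had 0.25, 1.95 and -0.53 in knockouts 1 to 3, against 3.86, 3.76 and 4.19 in controls 1 to 3. All knockout arrays were well below the controls, although they differed among themselves, with knockout 2 the highest. The difference was -3.38 ± 0.59, a 10.4-fold lower signal (limma adjusted p = 0.0153), and it was -2.71 on the first slide and -4.72 on the second. Without control 1, 2 or 3 the limma adjusted p was 0.0562, 0.0542 and 0.0613, and without both samples with contradicting labels the difference was -3.95 (limma adjusted p = 0.0182).

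The other 6 mu-class genes, which lie around Gstm2 on chromosome 3 in the order Gstm5, Gstm7, Gstm6, Gstm3, Gstm2, Gstm1 and Gstm4, did not pass. Gstm7 had 0.20, 0.81 and 1.04 in knockouts, against -0.45, -0.47 and 0.01 in controls, with no overlap. Its difference was 0.99 ± 0.27 (limma adjusted p = 0.0513), and it passed as higher in 10 of the alternative settings, among them the slide block. The promoter windows of the 7 mu-class genes were identical at 48.3% to 53.3% of aligned columns, below the closest Ugt2b pairs. Unrelated windows were not aligned, so these figures have no baseline either. Gstm5 and Gstm6 had overlapping groups, with differences of 0.17 ± 0.17 and 0.60 ± 0.35.

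Gsto2 and Gstt2 were the transferases that passed as higher. Gsto2, an omega-class enzyme that reduces dehydroascorbate, had -2.71, -2.48 and -3.01 in knockouts 1 to 3, and on the controls, where it was not well above background, it read -4.28, -4.22 and -4.79. The groups did not overlap, and the knockout signal was at least 2.06-fold higher (limma adjusted p = 0.00625, fitted difference 1.70 ± 0.23). This bound sets the knockout mean against the higher of the control probe's own signal and the lowest signal above background on each array. A second Gsto2 probe stayed at background throughout. Gsto1, its neighbour on chromosome 19, had 7.91, 8.62 and 8.10 in knockouts, against 8.11, 8.01 and 8.28 in controls, and its groups overlapped.

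Gstt2, of the theta class, had 3.14, 3.67 and 3.35 in knockouts, against 2.48, 2.35 and 2.11 in controls. Every knockout array exceeded every control array, and the difference was 1.07 ± 0.20 (limma adjusted p = 0.0177). It was 0.99 on the first slide and 1.23 on the second, and the call was lost with the array median as the scale. Gstt3 had 4.63, 5.23 and 4.81 in knockouts, against 4.35, 4.12 and 4.32 in controls, without overlap, and did not pass (0.62 ± 0.20, limma adjusted p = 0.0805). Gstt1 overlapped, and Gstt4 was not above background on any array.

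Gstk1, the kappa-class enzyme of mitochondria and peroxisomes, had 3.99, 4.15 and 4.21 in knockouts, against 4.72, 5.12 and 4.90 in controls. The groups were tight and separate, and the difference was -0.79 ± 0.17 (limma adjusted p = 0.0275). Gstz1, which acts in tyrosine breakdown, had 3.27, 3.01 and 2.88 in knockouts, against 3.58, 3.48 and 3.33 in controls. It did not overlap either, but did not pass (-0.41 ± 0.17, limma adjusted p = 0.145). The pi-class genes Gstp1, Gstp2 and Gstp3 differed by -0.04, 0.09 and -0.07 with overlapping groups, and 0 passed by limma (0 at an unadjusted p under 0.05). Of these Gstp2 had the smallest p (difference 0.09 ± 0.17, 95% interval -0.33 to 0.50, limma adjusted p = 0.747). Of the 3 alpha-class genes 0 passed by limma (0 at an unadjusted p under 0.05). Gsta2 had the smallest p of these, with 6.89, 8.19 and 7.70 in knockouts, against 7.02, 6.80 and 7.27 in controls (0.56 ± 0.34, limma adjusted p = 0.275).

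The membrane-bound Mgst genes belong to another protein family, called MAPEG, that also makes leukotrienes and prostaglandins. Mgst1, which protects membranes from oxidised lipids, had 5.02, 5.22 and 5.27 in knockouts, against 6.61, 6.16 and 5.94 in controls. The groups did not overlap, the difference was -1.07 ± 0.21 (limma adjusted p = 0.0219), and a second probe gave -1.07 as well. Mgst2 had 6.73, 8.42 and 7.37 in knockouts, against 6.97, 7.02 and 6.58 in controls, and overlapped (0.65 ± 0.42, limma adjusted p = 0.304). Mgst3 overlapped too, with a difference of 0.13 ± 0.25.

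Among the sulfotransferases 8 of 21 genes with a probe were measured, 1 passed as lower and 1 as higher. Sult1a1, the phenol sulfotransferase, was above background on all 3 control arrays, at -3.20, -2.14 and -3.28, and on no knockout array, where it read -5.75, -3.85 and -5.22. Its knockout signal was at least 2.09-fold lower (limma adjusted p = 0.0482, fitted difference -2.06 ± 0.54). A second Sult1a1 probe, also dim in every knockout array, differed by -2.66 without overlap. The call was close to the threshold and was lost in 14 of 23 alternative settings, among them the slide block and the omission of any 1 array other than knockout 2.

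Sult6b2 had 2.74, 4.28 and 3.13 in knockouts, against 1.33, 1.42 and 1.96 in controls. Every knockout array was above every control array, and knockout 2 was the highest (difference 1.81 ± 0.41, limma adjusted p = 0.0328). Of the 2 measured Sult2 genes 0 passed by limma (0 at an unadjusted p under 0.05). Sult2b1, the cholesterol sulfotransferase, had 6.14, 6.57 and 6.93 in knockouts, against 5.85, 5.89 and 6.48 in controls (0.48 ± 0.27, limma adjusted p = 0.252), and Sult2a8, a bile acid sulfotransferase of mouse liver, differed by -0.14 ± 0.23. Sult1c1 overlapped, with a difference of 0.06 ± 0.31.

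**Figure D3:**
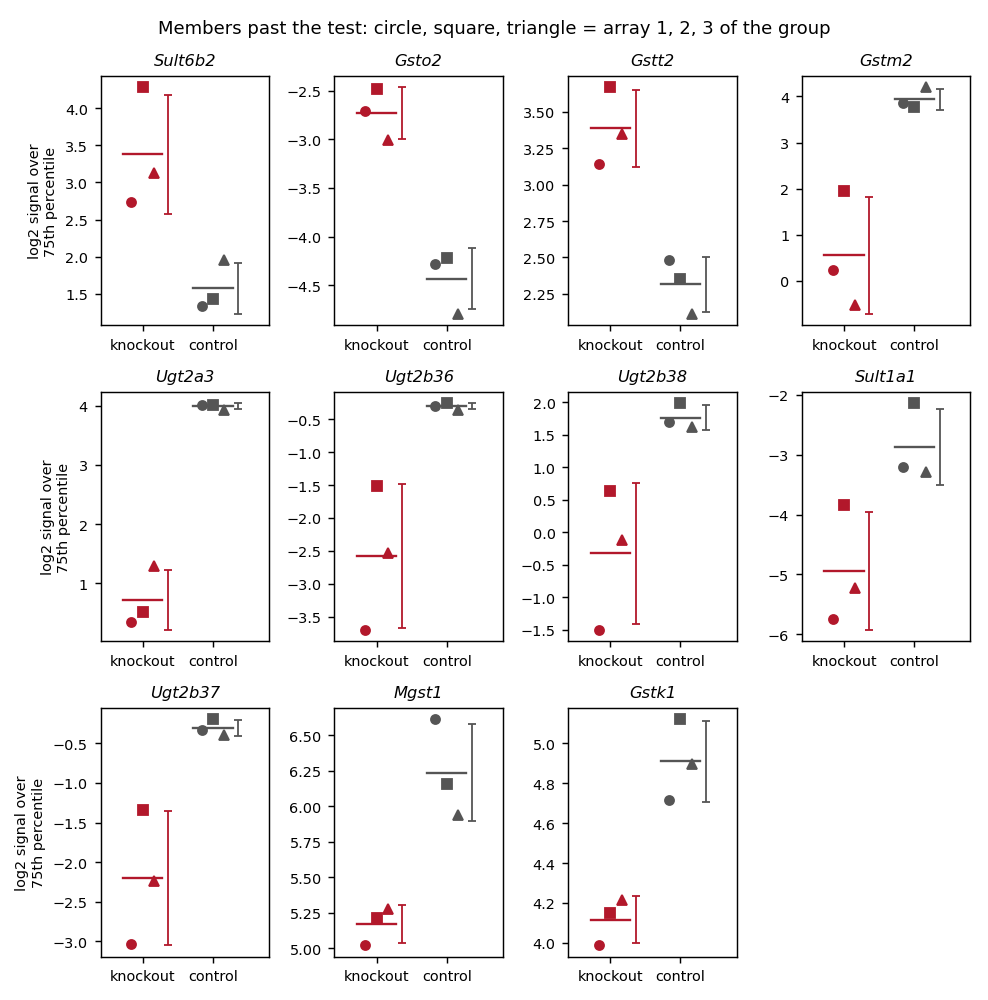
Log2 signal over the array's 75th percentile for the 11 members past the test, 1 panel per gene with its own vertical scale. Red symbols are the knockout arrays on the left and grey symbols the control arrays on the right (circle, square and triangle for arrays 1, 2 and 3), with a line at the mean and a bar of ± 1 SD (n = 3). No panel shows overlap between the groups, and the knockout arrays spread more than the controls in the Ugt2b genes, Gstm2 and Sult6b2.

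On the 75th percentile scale the knockout arrays differed among themselves more than the controls did. The median SD of the 42 members was 0.50 among knockout arrays and 0.20 among control arrays, and over all genes it was 0.30 among knockout arrays and 0.20 among control arrays. Knockout 2 was the highest knockout array for 29 members (69.0%), against 27.4% of all genes. Knockout 1 was the lowest for 37 members (88.1%), against 42.0% of all genes. These figures moved with the scale. With the array median as the scale, the median SD of the members was 0.37 among knockout arrays and 0.28 among control arrays, and over all genes it was 0.31 among knockout arrays and 0.28 among control arrays. On that scale knockout 1 was the lowest for 29 members (69.0%) and 24.8% of genes, and knockout 2 the highest for 30 members and 20.0% of genes. With quantile normalization the median SD of the members was 0.47 among knockout arrays and 0.18 among control arrays, and knockout 2 was highest for 28 members and 24.0% of genes.

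For 6 members (14.3%) knockout 2 lay above all controls while knockouts 1 and 3 lay below all of them, a pattern found in 110 of all genes (0.815%). These were Gsta3, Gstm1, Gstm3, Gstm4, Gstt1 and Sult1c2. Sult1c2 had -4.13, 0.97 and -4.23 in knockouts 1 to 3, against -0.89, -1.02 and -0.69 in controls. Gstm3 had 4.37, 7.60 and 5.42 in knockouts, against 6.66, 6.67 and 6.91 in controls. Gstm1 had 2.79, 6.35 and 3.70 in knockouts, against 4.92, 4.74 and 4.89 in controls, and a second Gstm1 probe had 0.86, 4.52 and 1.60 in knockouts, against 2.91, 2.60 and 2.61 in controls. In these 3 genes the knockout group held arrays on either side of a narrow control group. With the array median as the scale the pattern held in 5 members, without Gstt1, and with quantile normalization in 6, with Gsto1 in place of Gstt1.

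Of the 6, 0 passed by limma in the fit of all arrays (0 at an unadjusted p under 0.05). Gsta3 had -2.20, 2.19 and -1.77 in knockouts, against 0.49, -0.47 and -0.86 in controls, which were wider apart than those of the other genes named. Without knockout 2, Gstm1, Gstm3 and Sult1c2 were among the members called lower, with differences of -1.60, -1.85 and -3.31. The 6 genes were picked because knockouts 1 and 3 lay below the controls, so these calls follow in part from that choice. Sult1c2 was well above background on only 2 of the 3 knockout arrays, so its low values there are partly bounds. Knockout 2 is the sample whose source name and genotype contradict its title, and the only knockout array with Xist above background. The part of sex in the spread of the knockout arrays was not tested.

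**Figure D4:**
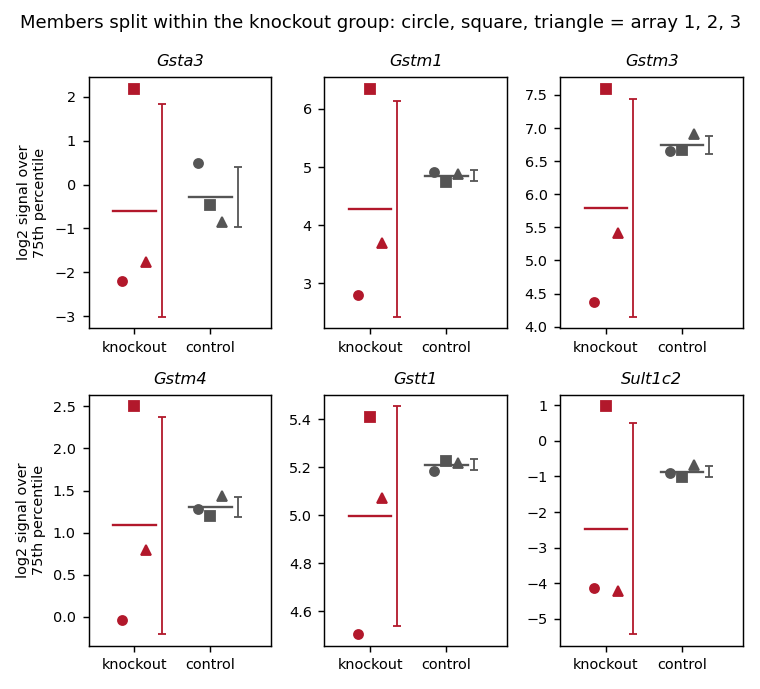
Log2 signal over the array's 75th percentile for the 6 members in which knockout 2 lay above all controls and knockouts 1 and 3 below them, 1 panel per gene with its own vertical scale. Red symbols are knockout and grey symbols control arrays (circle, square and triangle for arrays 1, 2 and 3), with a line at the mean and a bar of ± 1 SD (n = 3). In every panel the red square lies at the top and the red circle and triangle lie below the grey group.

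Many glutathione transferase genes are targets of NRF2 (encoded by Nfe2l2), the transcription factor of the oxidative stress response, and of AHR, a receptor for planar aromatic compounds. Nfe2l2 had 5.36, 5.75 and 5.55 in knockouts, against 5.42, 4.82 and 5.43 in controls, and did not pass (0.33 ± 0.22, limma adjusted p = 0.321). Of 17 measured genes of NRF2 targets and glutathione synthesis, 1 was higher and 1 lower, with a median of 0.33. The higher one was Pgd, an enzyme of the pentose phosphate pathway (0.81 ± 0.20, limma adjusted p = 0.0401), and the lower one was Tkt, of the same pathway (-1.03 ± 0.18, limma adjusted p = 0.0155).

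Averaged over these 17 genes and set against the control mean, the log2 level was 0.00, 0.95 and 0.24 in knockouts 1 to 3, and the controls lay between -0.11 and 0.12. Knockout 2 thus stood highest here too. The haem oxygenase gene Hmox1 had -0.62, 3.36 and -1.48 in knockouts, against -2.22, -2.08 and -2.40 in controls (2.65 ± 1.16, limma adjusted p = 0.159). Gclc, the rate-limiting enzyme of glutathione synthesis, had 2.90, 5.56 and 4.01 in knockouts, against 3.22, 2.70 and 3.57 in controls (0.99 ± 0.64, limma adjusted p = 0.306). Hmox1 and Gclc were chosen after their values were seen, and they weigh heavily in the average of knockout 2. On that array Gclm, at 4.57, lay below its controls (4.80, 4.67 and 5.06). Tkt, at 6.05, also lay below its controls there (7.23, 6.98 and 7.46). Over all arrays 4 of the 17 genes had a negative difference. In the promoter windows, the core of the NRF2 site, TGACNNNGC, was present for 4 members (Gsta3, Gstm5, Gstm7 and Mgst1, 10.3%), against 14.0% of all genes with a window. The core of the AHR site, TNGCGTG, was present for 2 (Gsta2 and Sult1d1, 5.1%), against 5.84%.

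Of 19 measured transcription regulators, 0 passed as higher by limma and 2 as lower (2 higher and 3 lower at an unadjusted p under 0.05), with a median of 0.24. Ahr had 1.08, 0.34 and 0.97 in knockouts, against 1.95, 1.49 and 2.06 in controls, without overlap (-1.04 ± 0.26, limma adjusted p = 0.0443). Cdx1, an intestinal homeobox factor, had 5.38, 5.32 and 4.5 in knockouts, against 6.42, 6.06 and 6.13 in controls (-1.14 ± 0.27, limma adjusted p = 0.0376). Its relative Cdx2 did not pass (-0.55 ± 0.16, limma adjusted p = 0.0626), nor did the xenobiotic receptor Nr1i2 (0.09 ± 0.34, limma adjusted p = 0.871) or Hnf4a (0.42 ± 0.17, limma adjusted p = 0.139).

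Glucuronidation and sulfation need activated sugar and sulfate. Of 9 measured supply genes, 0 were higher by limma and 1 was lower (1 each at an unadjusted p under 0.05), with a median of 0.44. This was Papss1, which makes the sulfate donor, with 0.98, 0.49 and 0.86 in knockouts, against 2.15, 1.74 and 2.58 in controls (-1.38 ± 0.26, limma adjusted p = 0.0182). Its isozyme Papss2 did not pass (0.44 ± 0.20, limma adjusted p = 0.172), nor did Ugdh, which makes UDP-glucuronic acid (0.46 ± 0.31, limma adjusted p = 0.327). Of the enzymes that remove conjugates, the sulfatase gene Arsa was higher (0.92 ± 0.22, limma adjusted p = 0.0369) and the glucuronidase gene Gusb did not pass (0.84 ± 0.32, limma adjusted p = 0.122).

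Of 8 other conjugating enzymes measured, 1 was higher and 1 lower, with a median of -0.25, where 7.28% and 7.63% of all genes were called. Nat2, an N-acetyltransferase, was higher (1.08 ± 0.20, limma adjusted p = 0.0172), and As3mt, which methylates arsenic, was lower (-0.64 ± 0.16, limma adjusted p = 0.0442). Among the 3 MAPEG genes outside the Mgst names, Alox5ap, needed for leukotriene synthesis and expressed in tuft cells, was lower (-1.79 ± 0.28, limma adjusted p = 0.0105). Of 8 transporters that carry conjugates out of cells, 1 passed as higher, Abcc5 (1.03 ± 0.24, limma adjusted p = 0.037), and the median was 0.37. The 10 related genes called were Pgd, Tkt, Ahr, Cdx1, Papss1, Arsa, Nat2, As3mt, Alox5ap and Abcc5. Their limma adjusted p ran from 0.0105 (Alox5ap) to 0.0443 (Ahr). All 10 calls were lost without both samples with contradicting labels. That fit called 143 of all genes lower and 177 higher, against 1029 and 982 with all 6 arrays. Of the 10, 9 (not Alox5ap) were lost without knockout 2, without control 1 and without control 3, 7 without control 2 and 5 without knockout 3. Arsa, As3mt, Cdx1 and Pgd were lost with the sex-linked genes as a block, and Abcc5, Arsa and Pgd with the array median as the scale.

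**Figure D5:**
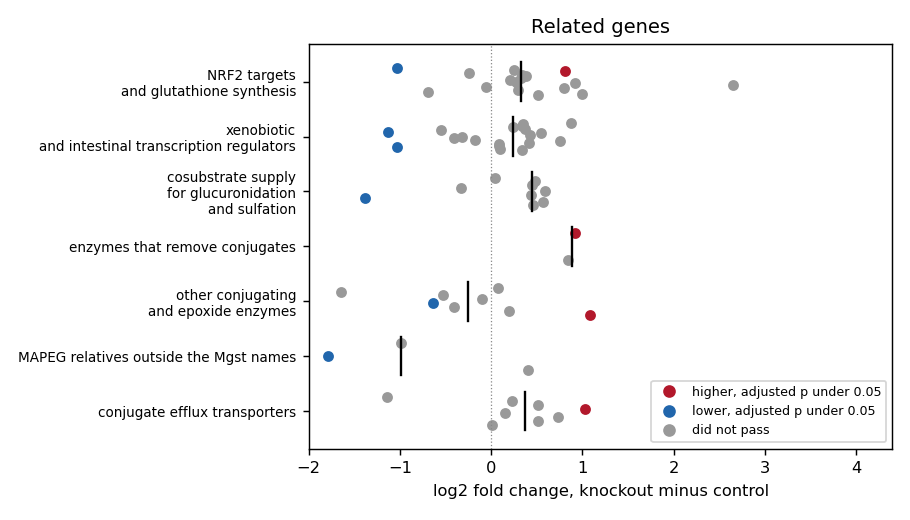
Difference in log2 signal, knockout minus control, for the measured genes of 7 related lists, 1 row per list and 1 point per gene, with a black line at each list's median. Red points passed the test as higher, blue as lower, grey did not pass (n = 3 per group). The point farthest to the right is Hmox1 at 2.65, which did not pass, and the called genes of the NRF2 list, Pgd and Tkt, lie on opposite sides of 0.

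Markers of some cell types also differed between the groups. For comparison, 7.28% of all genes were called higher and 7.63% lower. Of 17 enterocyte markers, 0 were higher by limma and 2 were lower (Lct and Mep1a), against 1 and 4 at an unadjusted p under 0.05, with a median difference of 0.28. Their summed linear signal, relative to the 75th percentile, ranged from 3173 to 6283 in knockouts and from 4007 to 5082 in controls. All 7 measured Paneth cell markers were negative and 6 were lower, with a summed range of 59.9 to 360.1 in knockouts and 836 to 1103 in controls. Of 9 goblet cell markers 5 were lower, with a summed range of 833 to 1244 in knockouts and 1781 to 1874 in controls. Of 9 crypt stem cell markers 4 were lower, with a summed range of 9.91 to 42.6 in knockouts and 73.3 to 98.8 in controls. Of 8 markers of the distal small intestine, 3 were lower and 1 higher (median -1.36, summed range 249 to 439.4 in knockouts and 206.8 to 286.7 in controls), and of 9 proximal markers 1 was lower (median 0.37, summed range 1515 to 2811 in knockouts and 2003 to 2561 in controls). Tuft cell markers had 2 of 8 lower, with a summed range of 4.18 to 6.93 in knockouts and 8.75 to 12 in controls. Of 5 hepatocyte markers Alb was not kept, and 1 of the 4 others was lower (Cyp2e1, -3.10). These 4 summed to 1.62 to 1.89 in knockouts and 2.12 to 2.67 in controls. All 9 proliferation markers were negative, although 0 passed by limma (6 lower at an unadjusted p under 0.05), with a summed range of 57.1 to 118.5 in knockouts and 125.9 to 168.7 in controls. Myeloid markers summed to 3.37 to 3.47 in knockouts and 4.75 to 8.94 in controls, with 1 of 5 higher (Cd68, 0.87) and 1 lower (Lyz2, -3.43). Their median difference was 0.27 and 2 of the 5 were negative, so the lower sum does not describe these markers as a set. Endothelial markers summed to 5.73 to 16.4 in knockouts and 0.595 to 0.754 in controls. Of these, Cdh5 and Kdr were not kept and 1 of 4 was higher, Lyve1 (4.64 ± 0.42, limma adjusted p = 0.00173). Pecam1 (0.53), Tek (-0.02) and Vwf (1.27) did not pass, so the rise of the sum was mostly that of Lyve1. Of 10 fibroblast and muscle markers only Vim and Acta2 were kept, with the collagen genes among those left out, and they summed to 46.3 to 69.7 in knockouts and 27.1 to 39.7 in controls, with Acta2 higher (0.91 ± 0.24, limma adjusted p = 0.0478). The summed ranges of the enteroendocrine, colon, T cell, B cell, mast cell and exocrine pancreas lists overlapped. The part of these cell types in the members' differences was not tested.

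Of the 57 members with a probe, 15 were left out by the background filter. Gstt4, Sult1e1, Sult2a2 to Sult2a7, Sult3a1, Sult3a2, Sult5a1, Sult6b1 and Ugt2b1 were above background on 0 arrays, and Sult2a1 and Sult4a1 on 1. The hydroxysteroid (Sult2a) and estrogen (Sult1e1) sulfotransferases known from liver were thus mostly not detectable in these crypts. Just inside the filter, on 3 arrays, were Gsto2 and Sult1a1.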

How the data were processed

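Per the labels' protocols, Cy3-labelled RNA of each of the 6 crypt samples was hybridised to its own Agilent array, in 1 colour. Agilent Feature Extraction gave the spot intensity (version 11.5.1.1 per the submitters' processing notes, and 12.0.3.1 in the headers). The authors' processed intensity, per the file headers, has the background of its array subtracted and no scaling between arrays. The background flags are the authors' Feature Extraction values. The log2 values of the table the authors deposited for the series matched the scanner values on the 75th percentile scale after each probe was centred on its median (column medians -0.07, 0.22 and -0.18 for knockouts 1 to 3, 0.20, 0.06 and -0.32 for controls). It served as an alternative.

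Control and outlier spots were left out, spots of a probe averaged, and log2 signal minus each array's 75th percentile taken. Of 56605 probes, 41.7% to 54.7% per array stood well above background, and 0 spots were saturated. Probes were named through unversioned accessions in a RefSeq table of GRCm38.p6. The 33767 probes with a symbol gave 23462 genes, of which 13492 were kept. Levels were not compared between genes.

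The limma fit (version 3.58.1, under R 4.3.3) had no term but group and was tested on simulated data, and promoter windows were aligned with Biopython 1.88. Promoter windows of 39 of 42 members were found; Gsta4, Gstt2 and Ugt1a6b were not matched. The members, gene lists and tests were chosen with earlier results of these data known. Named were all called members, the member with the smallest p in classes without one, up to 5 called genes per related list, and Nfe2l2, Ahr, Nr1i2, Hnf4a and Cdx2; other values were added after they were seen. Arrays with the same replicate number were not taken as pairs in the main fit. Their deviations from the group means correlated over genes at 0.25, 0.08 and 0.35. With the replicate number as a block, 1329 of all genes were higher and 1404 lower, against 982 and 1029 in the main fit. A total of 24 alternatives were tried: group labels, contradicting samples left out, replicate, slide and sex blocks, 1 slide alone, background correction, normalization, probe filter, probe choice, variance model, array weights, the deposited table, thresholds and each array left out. The sex block was chosen after the data were seen. The normexp correction (offset 50) used median signals, since a mean signal column was not used here. The number of arrays limits the precision.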

Additional observations from a re-analysis of the deposited data

Results flagged for a closer look

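Sult2a1, which the background filter left out, was well above background on 1 knockout array and on 0 control arrays: knockout 1 read -0.99, against -5.60 on knockout 2, -6.82 on knockout 3 and -5.51 to -6.53 on the controls. Sult4a1 was also well above background on 1 knockout array, knockout 3 at -3.90, and on 0 control arrays, where it read -4.45 to -5.11. On knockout 1 Sult4a1 read -3.99, also above the controls, and on knockout 2 it read -5.65, below them.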

How the results depend on the processing

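With 8 members lower and 3 higher as reported, grouping by source name and genotype gave 0 lower and 0 higher by limma (2 and 0 at an unadjusted p under 0.05, and 207 of all genes). Without both samples with contradicting labels the counts were 5 lower and 0 higher, on slide 1 alone 1 and 1, with no probe filter 2 and 1, and at an adjusted p under 0.01 they were 1 and 1. Over all genes these settings called 143 and 177, 370 and 319, 331 and 366 (of 23456), and 224 and 289. With the sex-linked genes as a block 4 members were lower, and 643 of all genes. Higher members numbered 5 with normexp, 5 at an adjusted p under 0.1 and 11 with array weights. Of all 13492 genes, 1093, 1644 and 3489 were then higher. With array weights 11 members were lower too, and 3608 of all genes. Leaving out single arrays gave 1 to 11 lower and 1 to 8 higher members (286 to 2323 and 352 to 1710 of all genes). The replicate block gave 8 lower and 4 higher members (1404 and 1329 of all genes), with Gstm7 as the added call. It changed no other member's call, and ended those of As3mt and Pgd. With the array median as the scale, 11 members were lower and 2 higher (1390 and 561 of all genes), while the median of all genes shifted to -0.26. Relative to 0, the signs of Gstm5, Gsto1, Gstp2, Mgst3, Sult1b1 and Sult1c1 then turned, none of them called.

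Turned in sign with 1 of the values called, or with both larger than their SE, were Ahr (0.11), Papss1 (0.012) and Mgst2 (-0.58) when grouped by source name and genotype, and Gstm3 (0.62) and Sult1c2 (1.34) with array weights. The cause of these changes was not tested. Ugt2a3 lost its call only under that other grouping, and Gsto2 there (0.16) and without both samples with contradicting labels (1.39). Sult1a1, Ugt2b38 and Ugt2b36 lost theirs in 14, 11 and 10 settings. Gsto2, Sult1a1, Sult1c2, Ugt2b35 and Ugt2b36 were near background on some arrays, where fold changes are bounds.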

Other observations

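Dnajb3, a gene of the heat shock protein family that lies among the Ugt1 genes on chromosome 1 in the RefSeq order, was higher in knockout crypts by 1.97 ± 0.20 (limma adjusted p = 0.00243), while the 3 measured Ugt1 genes had differences of -0.15 to -0.70. It was chosen after its value was seen.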
